A study of Mus musculus with 42 samples.

Results

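The regions described here are SMARCA2/4 peaks of euploid mouse hippocampus with no overlapping peak in the Ts65Dn list and one in the Ts65Dn;Brwd1+/- list. They were chosen from the measured peak lists themselves: a euploid peak was a member when no Ts65Dn peak overlapped it by at least 1 bp and a Ts65Dn;Brwd1+/- peak did. This gave 620 of 22667 euploid peaks (2.74%), called regained peaks in what follows. Most euploid peaks, 21446 (94.6%), overlapped no peak in either trisomic list and served as the comparison. A further 359 (1.58%) were shared with the Ts65Dn list only, and 242 (1.07%) stood in all 3 lists. The trisomic lists were far shorter, with 1290 peaks in Ts65Dn and 1873 in Ts65Dn;Brwd1+/-, of which 47.8 and 45.8% overlapped a euploid peak. Absence from a list does not show absence of binding, and the part of list length in these counts was not tested.

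The study asked whether restoring the copy number of Brwd1 in trisomic mice returns BAF complex targeting, chromatin accessibility and gene expression towards the euploid state. Ts65Dn mice are trisomic for distal chromosome 16, together with a proximal piece of chromosome 17, and are a model of Down syndrome. Ts65Dn;Brwd1+/- mice came from Ts65Dn females and males heterozygous for the mutant Brwd1 repro5 allele, so that in principle 2 working copies of Brwd1 remain on an otherwise trisomic background. Euploid, Ts65Dn and Ts65Dn;Brwd1+/- animals were all on a mixed background of DBA/2J and B6EiC3Sn/J. Binding was measured by ChIP-seq with a custom antibody against Smarca2/4 in male hippocampus at 6 to 8 weeks of age. Each genotype had 4 immunoprecipitated libraries and 4 inputs, and each replicate pooled unilateral hippocampi of 2 animals. Open chromatin was measured by ATAC-seq in sorted NeuN+ nuclei of adult male hippocampus (3 libraries per genotype), and RNA in neuronal cultures of embryonic day 16 forebrain (3 libraries per genotype). The binding data thus came from every cell type of adult hippocampus, the accessibility data from its neurons alone, and the RNA from cultured embryonic neurons. Peaks were deposited as a single list per genotype and assay, so no replicate error exists for any peak, and the sequencing depth behind the lists is unknown.

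SMARCA4 (BRG1) and SMARCA2 (BRM) are the alternative ATPase subunits of the BAF (SWI/SNF) complex, which uses the energy of ATP to slide or evict nucleosomes. In neurons BAF complexes keep promoters and distal enhancers accessible and are needed for dendrite growth and activity-dependent transcription. BRWD1 is a protein with WD repeats and bromodomains, the modules that read acetylated histones, and its gene lies on the part of mouse chromosome 16 that is triplicated in Ts65Dn.

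The DNA under regained peaks ranged from ordinary promoter and intron sequence to a simple tandem repeat, and the sequences below show both ends of that range. They are read from GRCm38.p6 (mm10), plus strand, up to 300 bases around the middle of each peak. Capitals mark a match on either strand to one of the transcription factor motifs searched. The peaks near Gm45063, Sgsm2, Kif21b, Btg2 and Nf1 were among the 12 with the highest euploid fold enrichment, and the unnamed peak of chromosome 8 was among the strongest intergenic members.
Gm45063, chr6:132463744-132463807: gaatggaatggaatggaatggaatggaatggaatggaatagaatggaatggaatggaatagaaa
Sgsm2, chr11:74871137-74871398: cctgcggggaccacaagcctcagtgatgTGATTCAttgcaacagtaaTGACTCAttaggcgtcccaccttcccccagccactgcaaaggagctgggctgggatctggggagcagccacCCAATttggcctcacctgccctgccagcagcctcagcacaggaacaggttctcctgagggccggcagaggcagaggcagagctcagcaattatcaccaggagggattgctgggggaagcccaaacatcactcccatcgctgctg
Btg2, chr1:134079370-134079669: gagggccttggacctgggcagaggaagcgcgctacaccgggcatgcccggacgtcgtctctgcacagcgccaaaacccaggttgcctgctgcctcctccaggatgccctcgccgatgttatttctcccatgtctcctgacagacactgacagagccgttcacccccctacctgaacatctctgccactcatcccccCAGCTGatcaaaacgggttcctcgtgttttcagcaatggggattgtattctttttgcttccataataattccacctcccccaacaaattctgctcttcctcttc
Kif21b, chr1:136140275-136140574: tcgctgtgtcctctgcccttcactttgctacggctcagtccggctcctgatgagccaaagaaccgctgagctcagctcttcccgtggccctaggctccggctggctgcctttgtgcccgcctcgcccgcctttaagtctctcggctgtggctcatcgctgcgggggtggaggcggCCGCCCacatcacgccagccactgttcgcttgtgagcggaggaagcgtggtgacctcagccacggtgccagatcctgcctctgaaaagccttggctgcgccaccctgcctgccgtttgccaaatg
Nf1, chr11:79339261-79339463: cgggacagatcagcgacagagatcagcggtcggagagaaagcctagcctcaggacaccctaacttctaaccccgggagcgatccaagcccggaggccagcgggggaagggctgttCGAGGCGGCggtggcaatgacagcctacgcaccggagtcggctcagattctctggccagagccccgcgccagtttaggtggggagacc
Intergenic, chr8:84985648-84985947: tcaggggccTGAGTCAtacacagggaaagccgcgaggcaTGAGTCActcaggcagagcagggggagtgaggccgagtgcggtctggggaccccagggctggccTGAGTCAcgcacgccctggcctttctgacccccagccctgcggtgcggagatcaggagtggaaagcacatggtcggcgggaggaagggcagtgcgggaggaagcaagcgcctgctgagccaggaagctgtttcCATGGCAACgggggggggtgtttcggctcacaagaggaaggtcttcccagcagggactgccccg

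The Gm45063 peak, the strongest of all members, was made up mostly of the pentamer GGAAT, with 10 copies in the 64 bases shown, interrupted by single-base differences. At least 8 copies of GGAAT, not necessarily in an unbroken run, occurred in 1 regained peak, 1 missing peak and 4 of the 224 nuclear peaks present in all 3 lists. The other sequences shown were not tandem repeats. The peak of Sgsm2, which encodes a regulator of small GTPases, was intronic and in a promoter region to 3 kb. Its capitals mark a CCAAT box and a pair of matches to TGANTCA, the AP-1 motif as searched, namely TGATTCA and TGACTCA. The chromosome 8 peak held 3 AP-1 matches and 1 match to GTTGCCATG, read on the other strand.

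Motifs were counted in a fixed window of 300 bases around the middle of each peak, which for most peaks runs past both ends of the peak. For most of the 14 motifs searched, the share of windows with a match at regained peaks lay near that of the euploid list. TGANTCA, a looser form of the sites TGACTCA and TGAGTCA of the activity-regulated AP-1 factors, was found in 13.5% of 591 regained windows (95% Wilson interval 11.01 to 16.5). It was found in 11.8% of windows at missing peaks and 11.9% of all euploid windows. CAGCTG, an E-box of the kind bound by neuronal bHLH factors, was found in 22.5% of regained windows (19.3 to 26.0) and 20.1% of all windows. GGGCGG, the GC box, was found in 27.9 and 27.1%. CCAAT was found in 23.5% of regained windows (20.3 to 27.1) and 27.6% of all windows, and GTTGCCATG, a RFX half-site, in 2.20% (1.29 to 3.73) and 1.08%. The motif CGNGGNGGC, the core marked in the Nf1 sequence, was present in 9.48 and 8.38%. A match is only a run of letters, and the Wilson intervals here and below cover counting error alone.

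Regained peaks were longer than missing peaks and had a similar median enrichment. Because length and enrichment entered the rule, these values are a description. Their median length was 153 bases (quartiles 93.8 and 276) against 91 (68 and 131) for missing peaks, and their median fold enrichment over local background was 3.82 (3.25 and 4.53) against 3.73 (3.30 and 4.14). Peaks shared with Ts65Dn only were much like them, with a median length of 149 bases and a median fold enrichment of 3.91. Among euploid peaks of 55 to 63 bases 1.22% were regained, and among those of 265 bases or more 14.6%. A longer peak has more bases that can overlap another. By fold enrichment, 3.50% were regained in the lowest class, 1.63% in the next and 8.62% in the highest, which ran from 4.97 to 20.4-fold. In the euploid list 94.5% of regained peaks had a q-value under 0.05, against 87.4% of missing peaks.

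**Figure D1:**
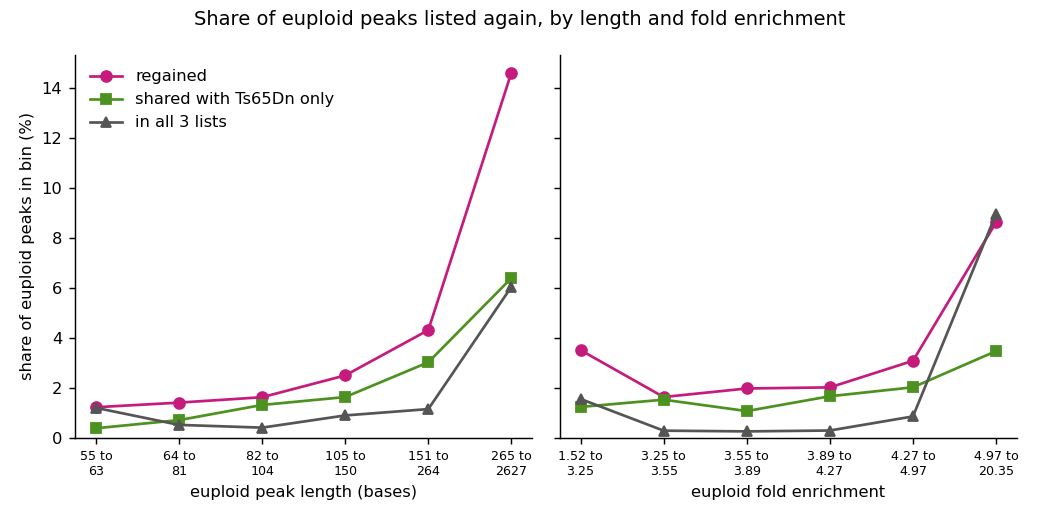
Share of euploid SMARCA2/4 peaks (y axis, percent) that were regained, shared with Ts65Dn only or in all 3 lists, in 6 classes of peak length (left, bases) and 6 classes of fold enrichment (right). The regained share went from 1.22% in the shortest class to 14.6% in the longest, and from 3.50% in the lowest fold class through 1.63% to 8.62% in the highest.

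In the Ts65Dn;Brwd1+/- list the same sites carried a similar fold enrichment with weaker support. The 620 members overlapped 605 distinct Ts65Dn;Brwd1+/- peaks, 32.3% of that list of 1873. The fold enrichment there had a median of 3.90 (quartiles 3.39 and 4.20), and it was higher in the euploid list at 302 members (48.7%). Only 359 members (57.9%) met a Ts65Dn;Brwd1+/- peak with a q-value under 0.05, and 339 had a q-value under 0.05 in both lists. The value 4.20 recurred at 63 members and 3.90 at 49, with 211 different values among the 620 members against 358 in the euploid list.

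Membership turned on small distances at some sites. Klf16, which encodes a zinc finger repressor, and Gm38670 each had a member that met its Ts65Dn;Brwd1+/- peak by 1 bp. In all, 27 members overlapped by less than 10 bp, and the median overlap was 56 bp. Nearest to exclusion on the other side was the promoter of B3galt5, a galactosyltransferase gene, with a Ts65Dn peak 3 bases away. The next were at Rsad1 (10 bases), Scn8a (24 bases), which encodes a voltage-gated sodium channel, and Lgals3 (27 bases). A Ts65Dn peak lay within 1 kb of 103 members (16.6%). Just outside the rule, peaks at the clock gene Per1 and at Ccdc92b missed a Ts65Dn;Brwd1+/- peak by 1 base, a peak in Dtx4 abutted such a peak, and 1407 missing peaks had one within 1 kb.

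Among the 12 strongest members, 9 were assigned to genes and 3 were intergenic. Sgsm2 stood at 7.12-fold in euploid and 3.40-fold in Ts65Dn;Brwd1+/- hippocampus. Tnrc18, a large nuclear gene with a BAH domain, stood at 6.78 and 4.20. Kif21b, a neuronal kinesin, had an intronic peak of 6.48 and 3.42, and Btg2, an antiproliferative immediate early gene, a promoter peak of 6.33 and 5.01. Of these 12 peaks, Gm45063 alone was stronger in Ts65Dn;Brwd1+/- hippocampus, at 7.79 and 9.30. The remaining genes were Zfp251 (6.42 and 4.04), Gramd1b (6.36 and 5.57), a sterol transfer gene, Ppp6r1 (6.30 and 3.14), a phosphatase regulator, and Nf1 (6.21 and 4.50), the Ras inhibitor lost in neurofibromatosis. The intergenic peaks were chr1:86441768-86442170, chr17:73263319-73263468 and chr5:125215685-125216042, with euploid values of 6.56, 6.53 and 6.24.

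By annotated region, regained peaks were spread more evenly from promoters to intergenic DNA than missing peaks. Proximal promoters, the regions closest to start sites, held 122 of 620 (19.7%, interval 16.7 to 22.99), against 25.3% of missing peaks and 20.1% of those shared with Ts65Dn only. Promoter regions to 1 kb held 24.03 and 23.5%, promoter regions to 3 kb 13.2 and 11.6%, and all promoter classes together 56.9% (53.0 to 60.8) and 60.4%. Gene bodies held 21.6% (18.6 to 25.02) of regained peaks, 27.3% of missing peaks and 26.7% of those shared with Ts65Dn only. Intergenic DNA held 21.5% (18.4 to 24.9) against 12.3% (14.2% for peaks shared with Ts65Dn only), and without the mitochondrial genome and unplaced scaffolds 16.8 against 12.2%. By the middle base of the peak, 47.5% of the 591 nuclear members lay in introns, 29.9% between genes, 10.2% in exons with untranslated sequence, 7.61% in noncoding exons and 4.74% in coding exons.

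**Figure D2:**
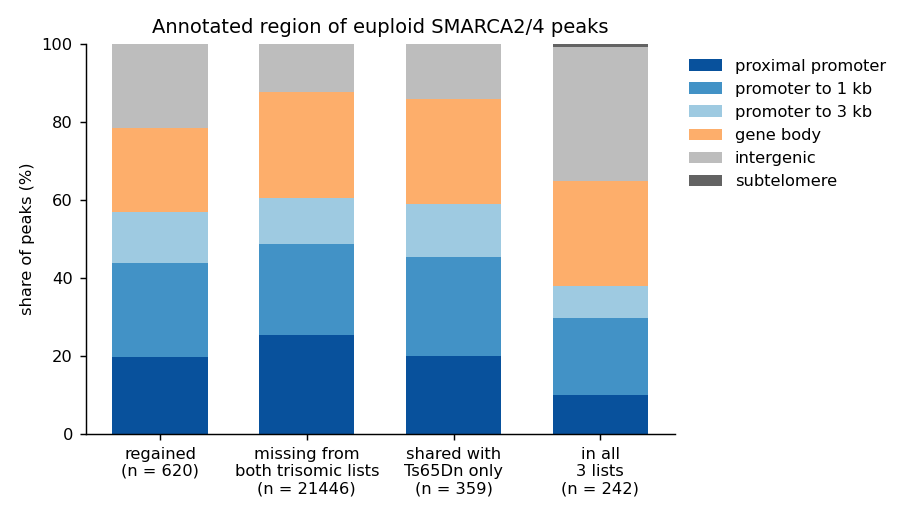
Share of peaks (y axis, percent) in each annotated region, stacked, for the 620 regained peaks, the 21446 missing from both trisomic lists, the 359 shared with Ts65Dn only and the 242 in all 3 lists. Proximal promoters took 19.7% of regained and 25.3% of missing peaks, and intergenic DNA 21.5 and 12.3%.

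CpG content and repeats were measured in the same 300-base windows, and so describe the surroundings of a peak as well as the peak. In proximal promoters, 50.8% of regained windows (42.1 to 59.5) had the composition of a CpG island (over 50% G and C, and over 0.6 of the CpG number that base composition predicts), against 66.8% of missing ones. In gene bodies the order was the other way, with 10.4% (6.33 to 16.8) against 3.16%. For peaks shared with Ts65Dn only the shares were 54.2% in proximal promoters and 2.08% in gene bodies. For peaks in all 3 lists they were 45.8 and 9.23%. Across all regions the shares were 28.9 and 30.4%. Annotated repeats covered more than 50% of the window at 43 regained peaks (7.28%, 5.45 to 9.66), at 1.58% of missing peaks and at 31.3% of the peaks in all 3 lists.

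A small number of loci held many members. Of the 591 nuclear and 29 other members, 10 lay in the mitochondrial genome and 18 on the unplaced scaffold JH584304.1, together with 1 on another scaffold. These 29 were 4.68% of members, against 0.0373% of missing peaks and 7.44% of the peaks in all 3 lists. All 10 mitochondrial members had a fold enrichment of 1.64, were up to 2627 bases long and overlapped a euploid ATAC peak. At the predicted gene Gm21738 (chr14:19415722-19418286), 8 peaks of 1.66 to 2.40-fold were regained. On chromosome 17 (chr17:39843022-39848805), 11 peaks of 1.52 to 1.81-fold were regained across Gm26917, AY036118 and CT010467.1, transcripts of ribosomal RNA-like sequence. Per the methods of the study, reads that mapped to more than one place were dropped, and related copies of these sequences elsewhere in the genome were not examined here. At Gm21738 and in the chromosome 17 interval every member had a higher fold enrichment in the Ts65Dn;Brwd1+/- list. Joining members within 1 kb gave 551 separate sites, of which 511 held 1 member.

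Chromosome 11 held the most members (65) and also the most euploid peaks (2102), of which 3.09% were regained. Among the numbered chromosomes this share was highest on chromosome 17, with 44 of 1053 peaks (4.18%), 11 of the 44 being those of the interval just described, followed by chromosomes 5 (3.36%) and 7 (3.25%). The triplicated segments of chromosomes 16 and 17 held 15 members (2.42%), against 1.05% of missing peaks. The share was 2.89% for peaks in all 3 lists and 0.836% for those shared with Ts65Dn only. Those at the segment were assigned to genes such as Son, Rcan1, Hunk, Tiam1, Adamts1, Pigp and Pde10a. By genotype, copy number is higher there in both trisomic groups, for input as for immunoprecipitated DNA. The signal of these libraries over the segments was not examined here.

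Open chromatin was a measure that the rule did not use, and regained peaks lay in it more often than missing peaks. In euploid neurons 262 of 620 (42.3%, 38.4 to 46.2) overlapped an ATAC peak by at least 1 bp, against 25.7% (25.1 to 26.3) of missing peaks. The shares were 63.2% (59.4 to 66.9) against 43.8% in Ts65Dn and 61.1% (57.2 to 64.9) against 43.1% in Ts65Dn;Brwd1+/- neurons, whose lists were longer (29195 and 30244 peaks against 15521). Peaks shared with Ts65Dn only lay between, at 32.9% in euploid neurons, and those in all 3 lists were at 41.3%. The lists hold pooled libraries, so these are differences between lists and no test between animals was possible.

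The difference lay outside proximal promoters. In proximal promoters 51.6% of regained peaks (42.9 to 60.3) and 50.7% of missing peaks met a euploid ATAC peak. In gene bodies the shares were 32.8% (25.5 to 41.2) and 13.6% (31.3% for peaks shared with Ts65Dn only), in promoter regions to 3 kb 31.7% (22.6 to 42.4) and 10.1%, in promoter regions to 1 kb 43.0% (35.3 to 50.98) and 22.1%, and between genes 43.3% (34.2 to 52.9) and 22.6%. Length moved with this share, since peaks over 200 bases met ATAC peaks most often in both classes, with a rise at each step of length for missing peaks only. Within lengths of up to 80 bases outside proximal promoters it was 32.9% (23.9 to 43.5) against 12.1%, over 80 and up to 120 bases 28.0% (19.9 to 37.8) against 15.5%, over 120 and up to 200 bases 34.3% (25.7 to 44.1) against 22.9%, and over 200 bases 47.4% (40.5 to 54.4) against 34.3%. Without windows covered more than 50% by repeats it was 36.9% (32.5 to 41.5) against 17.5%.

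**Figure D3:**
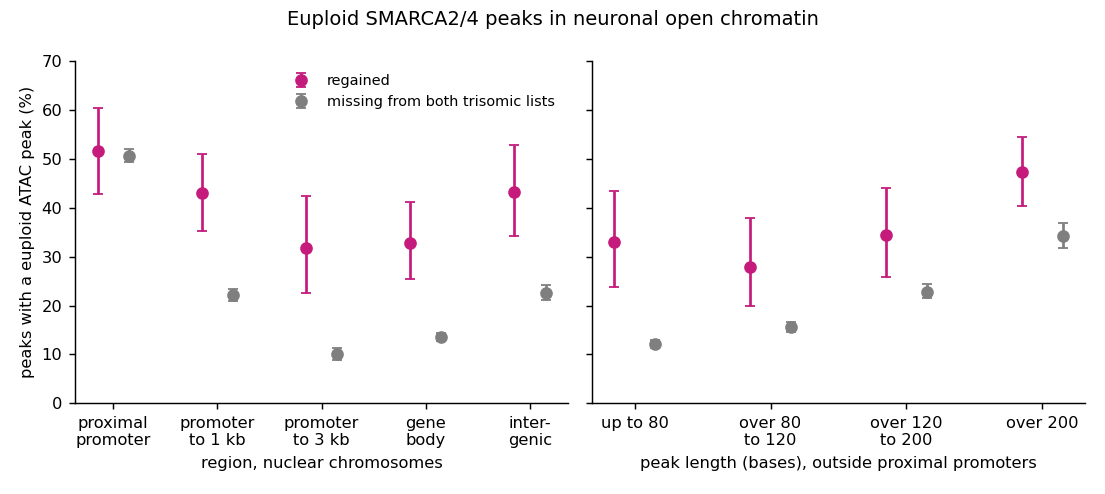
Share of SMARCA2/4 peaks that overlapped a euploid neuronal ATAC peak (y axis, percent, with 95% Wilson intervals as bars), by annotated region (left) and by peak length in bases outside proximal promoters (right), for regained peaks and for peaks missing from both trisomic lists. The points met in proximal promoters (51.6 and 50.7%) and stood apart in gene bodies (32.8 and 13.6%) and at lengths up to 80 bases (32.9 and 12.1%).

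Few peaks of any class had in accessibility the pattern by which the members had been chosen in binding. Of the 620, only 2 had an ATAC peak in euploid and Ts65Dn;Brwd1+/- neurons and none in Ts65Dn neurons (0.323%, 0.0885 to 1.17). The share was 0.504% for missing peaks and 0.494% for all euploid peaks. This pattern had little room to occur, since 5664 of the 5988 euploid peaks with a euploid ATAC peak had one in all 3 genotypes. In all 3 genotypes 249 (40.2%) were open and in none 194 (31.3%), against 24.3 and 50.4% of missing peaks. In both trisomic genotypes and not in euploid neurons 102 (16.5%) were open. This share was 13.3% for missing peaks, 13.5% for all euploid peaks and 18.9% for those shared with Ts65Dn only. At the 233 nuclear members with an ATAC peak in each genotype, the median ATAC fold enrichment was 3.87 in euploid neurons, 4.90 in Ts65Dn neurons and 4.21 in neurons of Ts65Dn;Brwd1+/-. For missing peaks the corresponding medians were 4.25, 5.39 and 4.50. Kif21b, Sgsm2 and Arc, the synaptic immediate early gene, were examples of genes whose regained peak met no ATAC peak in any genotype, and Btg2 and Son of genes whose peak was open in all 3.

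Regained peaks in a promoter or gene body named 402 genes, of the 7824 with a euploid peak. Of these, 328 were protein coding, 304 had the member in a promoter region and 117 in a proximal promoter. Most, 326 (81.1%), also carried a euploid peak missing from both trisomic lists. Nfix, which encodes a nuclear factor I protein needed for hippocampal development, had 5 regained peaks of 2.91 to 3.94-fold beside 57 missing ones. Tcf4, the bHLH factor mutated in Pitt-Hopkins syndrome, had 4, at 5.70, 4.69, 3.88 and 3.60-fold, beside 80 missing ones. Tnrc18 also had 4, beside 15. Shank2, Cyth1, Fmnl1, Thra (a thyroid hormone receptor), Tmeff2 and Zbtb20 (a hippocampal transcription factor) had 3 each, beside 7 to 23 missing ones.

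By function, regained peaks lay at a few synaptic, axonal and activity-regulated genes. Over all genes with a euploid peak, 5.14% had a regained one. Of 16 presynaptic genes with a euploid peak (21 in the list) 2 had a regained peak, among them Dnm1 (3.90-fold, gene body), the dynamin of vesicle retrieval. Of 19 postsynaptic genes with a euploid peak (22 in the list) 4 had one: the scaffold genes Shank1 (3.48 and 3.24-fold) and Shank2 (4.52, 4.01 and 3.87-fold), the kinase gene Camk2b (3.55-fold) and the glutamate receptor gene Grm5 (3.89-fold). Among 19 such axon and neurite genes (23 in the list) these were Nrp1, Ntng1 and Ank3, and among 15 such activity-regulated genes (17 in the list) Arc (4.46-fold) and Btg2. The splicing genes U2af1 and Son and the neuronal marker Rbfox3 (NeuN) also had one. No regained peak lay at the 26 genes of BAF subunits, 17 of which had a euploid peak, nor at those of other chromatin regulators (18 of 28 with a euploid peak), translation (17 of 35), oxidative phosphorylation (6 of 20), DNA replication and mitosis (2 of 18), or markers of astrocytes (6 of 10), oligodendrocytes (2 of 10) and endothelial and mural cells (2 of 10). Microglia markers had no euploid peak that could be regained. With so few euploid peaks in these lists, a count of 0 sets none of them apart from other genes.

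The culture RNA was first checked against the labels. Brwd1 stood at 93.1, 85.8 and 89.1 CPM (counts scaled to library size) in euploid, 129, 126 and 125 in Ts65Dn, and 145, 146 and 124 in the libraries labelled Ts65Dn;Brwd1+/-. Brwd1 RNA was therefore not lower in the last group than in Ts65Dn (log2 difference 0.13, SE 0.08, edgeR quasi-likelihood test, adjusted p = 0.186). A lower level would follow from the label if RNA tracked the number of working copies. Counts per gene do not separate transcripts of the repro5 allele from working ones, so they do not show that number. Values for this group below are those of the libraries so labelled. The labels call all cultures pooled male and female, yet Xist was at 1407 to 1980 CPM in the 3 libraries labelled Ts65Dn;Brwd1+/- and at 0.526 to 1.12 CPM in the other 6, with Y-linked genes the reverse. Sex and genotype can therefore not be told apart in contrasts with this group. Cell-type markers also moved: the summed neuron markers ran from 3630 to 4516 CPM in euploid, from 1027 to 2455 in Ts65Dn and from 3738 to 4680 in the third group. Endothelial and mural markers ran from 210 to 234, from 869 to 1133 and from 180 to 244 CPM. Other markers set the third group apart from both: oligodendrocyte markers ran from 362 to 415 CPM in euploid, 611 to 713 in Ts65Dn and 949 to 1151 in the third group, and genes of DNA replication and mitosis from 417 to 463, 580 to 697 and 981 to 1003. Microglia markers ran from 26.2 to 35.2, 42.2 to 51.9 and 18.2 to 25.1 CPM, and astrocyte markers from 3572 to 4422, 4005 to 4752 and 4424 to 4996. In bulk libraries fewer neurons and less RNA per neuron look the same, and the part of these shifts in the results below was not tested.

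Genes with a regained peak were expressed in the cultures at a median of 9.18 RPKM (counts scaled to gene length and library size) in euploid libraries, against 5.87 for genes with a missing and no regained peak. Of the 7365 genes of this second kind, 279 also had a peak shared with Ts65Dn only or in all 3 lists. Of the 402, 348 passed the filter on low counts. Across all 17173 genes tested, 46.7% reached the threshold of 0.05 (adjusted p) when Ts65Dn was set against euploid (25.6% higher, 21.1% lower), 58.1% in Ts65Dn;Brwd1+/- against Ts65Dn (27.6% higher, 30.5% lower) and 29.2% in Ts65Dn;Brwd1+/- against euploid (14% higher, 15.2% lower). Since the first pair of contrasts share the Ts65Dn libraries, their values are given side by side only.

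In Ts65Dn against euploid cultures, 204 of the 348 genes with a regained peak changed (58.6%, 53.4 to 63.7), of which 137 (39.4%) were lower and 67 (19.3%) higher. The 104 with the member in a proximal promoter had 31 lower (29.8%) and 24 higher (23.1%), with a median log2 difference of -0.06. The median of all 348 was -0.12, against -0.03 for genes with a missing and no regained peak and 0.04 over all genes. Of the 6247 tested genes with a missing and no regained peak, 52.6% changed, 28.8% being lower. In Ts65Dn;Brwd1+/- against Ts65Dn cultures, 246 genes changed (70.7%, 65.7 to 75.2), 153 higher (44.0%) and 93 lower (26.7%), with a median of 0.21 against 0.07 for genes with a missing and no regained peak. Among the 104 genes 42 were higher (40.4%) and 34 lower (32.7%), with a median of 0.10. In Ts65Dn;Brwd1+/- against euploid cultures 94 changed (27.0%), 47 in each direction, against 28.0% of genes with a missing and no regained peak. Genes of peaks shared with Ts65Dn only, which stood in the Ts65Dn list and not in the Ts65Dn;Brwd1+/- list, gave 61.8, 71.3 and 25.6%. These were close to the values of the regained set in each contrast. The tested genes with a regained peak had a median of 11.6 RPKM, against 4.49 over all tested genes, and the part of expression level in these shares was not tested.

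**Figure D4:**
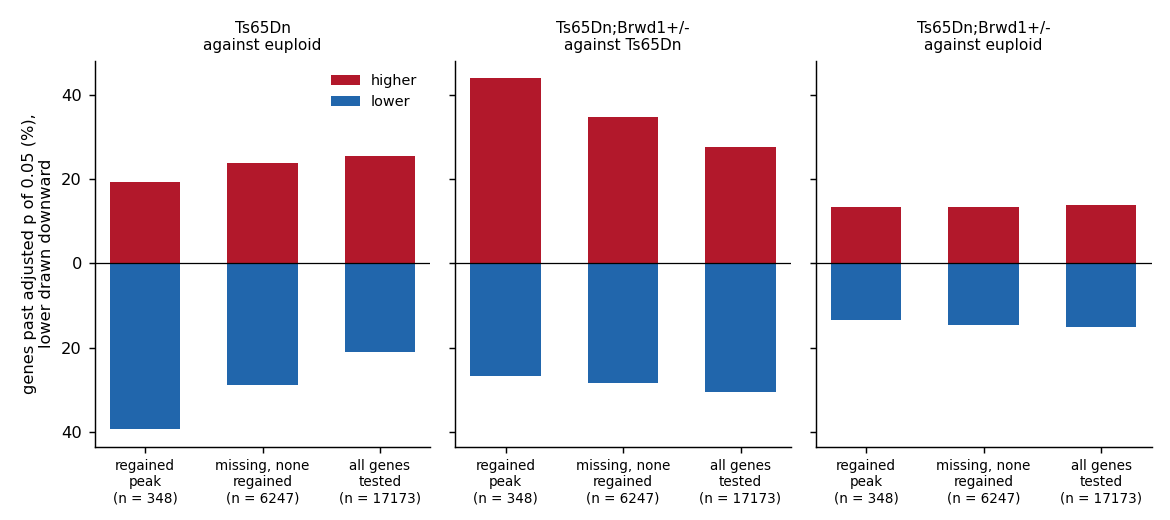
Percent of tested genes past an adjusted p of 0.05 in each culture contrast (edgeR), higher drawn upward and lower downward, for genes with a regained peak (n = 348), genes with a missing and no regained peak (n = 6247) and all genes (n = 17173). In Ts65Dn against euploid 39.4, 28.8 and 21.1% were lower, and in Ts65Dn;Brwd1+/- against Ts65Dn 44.0, 34.8 and 27.6% were higher.

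Synaptic genes among them were low in the Ts65Dn cultures and near euploid in the third group. Dnm1 stood at 373, 448 and 333 CPM in euploid, 175, 157 and 52.2 in Ts65Dn, and 441, 322 and 341 in Ts65Dn;Brwd1+/- libraries. All 3 Ts65Dn values lay below the other 6, with a log2 difference of -1.59 (SE 0.36, edgeR adjusted p = 0.00538) against euploid. Shank1 stood at 424, 543 and 376, then 211, 203 and 69.1, then 639, 461 and 449 CPM (-1.47, SE 0.35, edgeR adjusted p = 0.00715). Camk2b (-1.27), Grm5 (-1.70), Shank2 (-0.92) and Ank3 (-1.12), the ankyrin of the axon initial segment, fell in Ts65Dn as well, with non-overlapping libraries, and all of them rose in Ts65Dn;Brwd1+/- against Ts65Dn. Rbfox3, the neuronal marker, fell by 1.11 in the same cultures, and replicate 3 of Ts65Dn was lowest for each of these genes. The direction was not special to genes with a regained peak, since 19 of 19 presynaptic genes tested and 20 of 22 postsynaptic genes fell in Ts65Dn. Just 2 genes of the first list and 4 of the second had a regained peak.

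**Figure D5:**
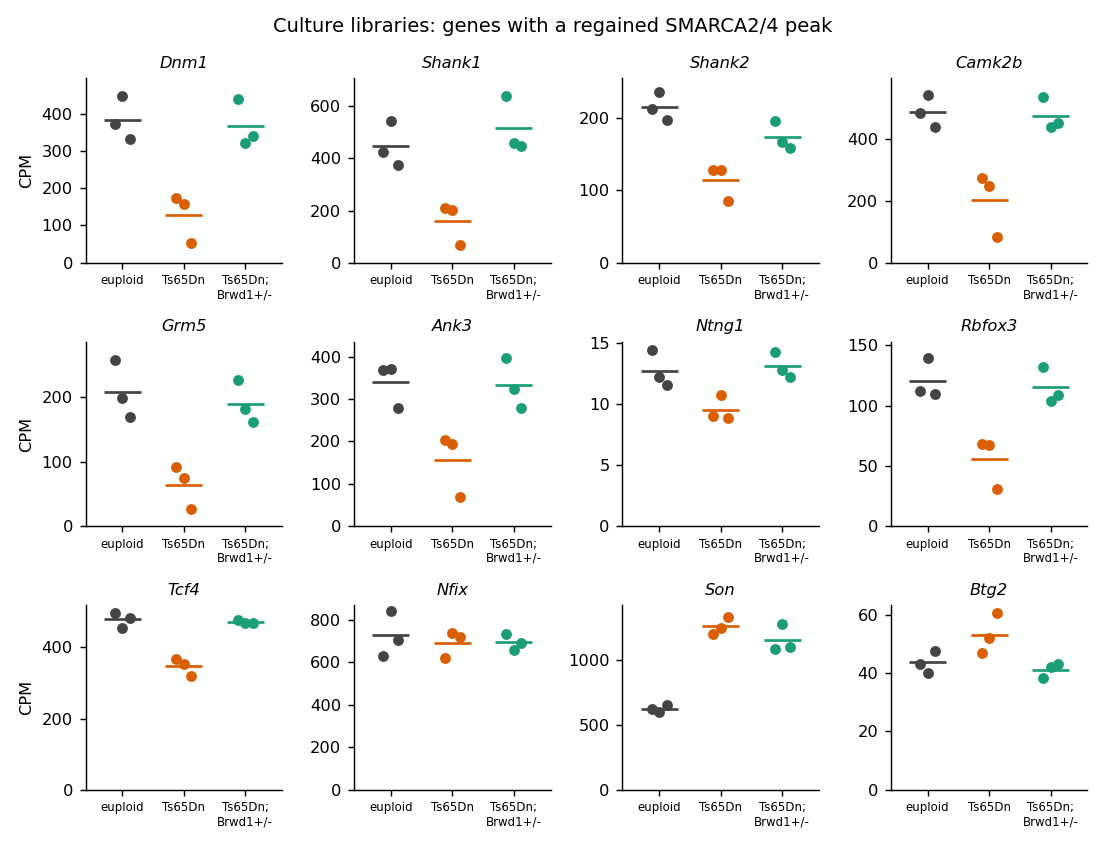
Expression in CPM (y axis, linear, from 0) of 12 genes with a regained peak in each of the 9 culture libraries, with points for libraries and bars for the mean of 3. Dnm1 in Ts65Dn stood at 52.2 to 175 against 333 to 448 in euploid, Nfix did not separate the groups, and Son was higher in both trisomic groups (1090 to 1336 against 603 to 654).

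The transcription factors with several regained peaks did not move alike. Tcf4 stood at 497, 455 and 484 CPM in euploid, 366, 354 and 319 in Ts65Dn and 477, 469 and 468 in Ts65Dn;Brwd1+/- libraries, a fall of 0.47 (edgeR adjusted p = 0.0013) followed by a rise of 0.44 (adjusted p = 0.000935). Nfix, with 5 regained peaks, gave -0.07 and 0.00, neither past the threshold. Zbtb20 was higher in Ts65Dn (0.33, adjusted p = 0.0329) and lower in Ts65Dn;Brwd1+/- than in Ts65Dn (-0.37). Among genes with 3 regained peaks, Thra fell by 0.74 and rose by 0.63, Fmnl1, a formin of actin assembly, fell by 1.35 and rose by 1.17, Cyth1, an exchange factor for ARF GTPases, fell by 0.59 and rose by 0.91, and Tmeff2 fell by 0.78 with a later difference of 0.26 that missed the threshold (edgeR adjusted p = 0.0645). Of the strongest binding sites, Kif21b fell by 1.26 and rose by 1.57, Gramd1b fell by 1.02 and rose by 0.76, and Zfp251 fell by 0.34 and rose by 0.56. Btg2 went the other way, higher in Ts65Dn (0.28, edgeR adjusted p = 0.0477, with overlapping libraries) and lower in Ts65Dn;Brwd1+/- than in Ts65Dn (-0.37), while Sgsm2, Tnrc18, Ppp6r1 and Nf1 passed the threshold in no contrast.

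Among the 104 tested genes with a regained peak in a proximal promoter, the largest rise in Ts65Dn was that of Nab2, a corepressor of EGR factors. It stood at 13.8, 17.97 and 15.6 CPM in euploid, 39.6, 48.0 and 50.7 in Ts65Dn, and 21.2, 20.2 and 22.2 in Ts65Dn;Brwd1+/- libraries (1.54, SE 0.12, edgeR adjusted p = 1.16e-05). The others were T2 (1.13), Tmed1 (1.10), Rsph3a (1.10) and Vim (1.08). Tmed1 encodes a cargo receptor of the early secretory pathway, Rsph3a a radial spoke protein of cilia, and Vim the filament vimentin of glia, endothelium and mesenchyme. T2 and Rsph3a lie in the triplicated segment of chromosome 17. T2 had few counts, at 1.26, 1.40 and 2.05 CPM in euploid and 3.96, 2.37 and 3.92 in Ts65Dn libraries. Vim stood at 2389, 2833 and 2917 CPM, then 4955, 5609 and 6617, then 1289, 1693 and 1623, and moved with the endothelial and mural markers above. Among the largest falls were Rasal1 (-1.58), a Ras GTPase-activating gene, Rab26 (-1.48), linked to synaptic vesicles, Rhof (-1.26), a gene of filopodia, and Aatk (-1.25), a neuronal kinase.

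Among these 104 genes, the largest changes in Ts65Dn;Brwd1+/- against Ts65Dn were partly those of the same genes. Rasal1 rose by 2.45, from 5.63, 3.21 and 1.10 CPM to 21.5, 17.8 and 15.6 (SE 0.39, edgeR adjusted p = 0.000447), with 9.89, 12.5 and 7.69 in euploid libraries. Gse1, a subunit of a CoREST-type corepressor, rose by 1.44, Aatk by 1.40, Gm10060 by 1.40 and Dlk2, a Notch-inhibiting ligand, by 1.22. CT010467.1, the ribosomal RNA-like transcript, gave -2.28, but spread from 199 to 1029 CPM within Ts65Dn and from 101 to 646 within euploid libraries. Vim (-1.90), T2 (-1.80), 1700041G16Rik (-1.50) and Lmna (-1.35), which encodes the nuclear lamins A and C, made up the other large falls. Some of these genes had few counts. Gm10060 was at 1.32 to 1.71 CPM in Ts65Dn and 2.84 to 5.33 in Ts65Dn;Brwd1+/- libraries. T2 was at 2.37 to 3.96 and 0.846 to 1.17 CPM, and 1700041G16Rik at 0.789 to 1.85 and 0.334 to 0.522.

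Some promoters with a regained peak belonged to genes that set the third group apart from euploid. Gse1 stood at 39.5, 53.0 and 40.8 CPM in euploid and 107, 94.8 and 108 in Ts65Dn;Brwd1+/- libraries (1.21, SE 0.13, edgeR adjusted p = 0.000139). H3f3b, a gene of the replacement histone H3.3, stood at 162, 153 and 178 and at 327, 325 and 341 (1.01). Fkbp5, a glucocorticoid-induced chaperone gene with 2 regained peaks, was at 17.9, 18.4 and 19.7 in euploid, 19.8, 19.3 and 17.7 in Ts65Dn, and 36.4, 34.4 and 35.4 in Ts65Dn;Brwd1+/- libraries (0.92 against euploid). Abracl (1.96) and Gm10060 (1.57) were also higher, and Vim (-0.82), Tmem132b (-0.67), Nwd1 (-0.56), Arhgap21 (-0.55) and Adgra1 (-0.45) lower. Abracl and Gm10060 had few counts, at 0.637 to 1.02 and 1.02 to 1.62 CPM in euploid libraries. These contrasts carry the difference in sex-linked genes given above.

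In the triplicated segments, 11 genes with a regained peak were tested, of which 7 were higher and 3 lower in Ts65Dn than in euploid cultures. Of all 134 genes tested in the segments, 92 (68.7%) were higher and 7 (5.22%) lower. Son, a splicing gene, stood at 620, 603 and 654 CPM in euploid, 1203, 1251 and 1336 in Ts65Dn, and 1090, 1278 and 1106 in Ts65Dn;Brwd1+/- libraries (1.01, SE 0.09, edgeR adjusted p = 3.56e-05), and so stayed high in both trisomic groups. Rcan1, the calcineurin inhibitor, rose by 0.82 in Ts65Dn and remained 0.62 above euploid in the third group. Hunk, a kinase gene, rose by 1.53, while Tiam1, a Rac activator of dendritic spines, and Pde10a, a phosphodiesterase gene, were lower in Ts65Dn (-0.50 and -0.47) and higher in Ts65Dn;Brwd1+/- than in Ts65Dn (1.12 and 1.27), as was B3galt5 (-0.37 and 0.53).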

How the data were processed

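Groups of the 42 samples were taken from the labels. Members and gene lists were chosen with earlier results of these data known. The authors aligned reads to mm10 with HISAT2, kept uniquely mapped reads, removed duplicates and called peaks with MACS (ChIP-seq relative to input), and deposited 1 list per genotype and assay, annotated with diffReps. How replicates were combined is not given in the sources used here, so depth and replicate error of peaks are unknown. Each deposited peak carries a q-value and a fold enrichment, a linear ratio to the local background. The stated filter of the study is not obeyed by the SMARCA2/4 lists, where q-values under 0.05 made up 87.8% (euploid), 31.8% (Ts65Dn) and 58.2% (Ts65Dn;Brwd1+/-). Length was taken as end minus start, and overlaps needed at least 1 bp. Of the 11252 transcripts named, 93.9% had the same position in the GENCODE annotation of GRCm38.p6.

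The authors deposited raw read counts per gene for the 9 culture libraries. The paper names featureCounts, whereas the last 5 lines have the form that htseq-count writes. Use of strand is not given in the sources used here. Those 5 lines held 37.4 to 40.0% of counts and were left out, leaving 17270070 to 25892802 counts per library. Genes were kept with filterByExpr, scaled by TMM and fitted over all 9 libraries with genotype as the only factor in edgeR 4.0.16 (R 4.3.3), with the quasi-likelihood test, Benjamini-Hochberg adjustment over 17173 genes and a threshold of 0.05. The study used RUVr and DESeq2, and DESeq2 1.42.0 was an alternative, while RUVr was not installed. The script was tested on simulated data. Peaks and sequences were handled with Python 3.11.15, pandas 2.3.3 and pysam 0.24.0. Replicate numbers are shared between genotypes in the labels. Deviations of same-numbered libraries from their group means correlated at 0.129, 0.207 and 0.263 between euploid and Ts65Dn. Differently numbered libraries of these groups correlated at -0.208 to 0.022, so the numbers were taken to pair these libraries. The p-values given come from the fit without pairing, and a fit with a replicate block was an alternative. Between Ts65Dn and Ts65Dn;Brwd1+/- same-numbered libraries correlated at 0.279, -0.125 and 0.206, and between euploid and Ts65Dn;Brwd1+/- at 0.096, -0.162 and 0.186. Over all genotypes, differently numbered libraries correlated at -0.380 to 0.248. The labels do not say whether the cultures were separate litters, so p-values measure the spread between these libraries. The text names the 12 members with the highest euploid fold enrichment, genes of the lists with a regained peak, and, among genes with one in a proximal promoter, the 5 largest rises and 5 largest falls per contrast past the threshold with non-overlapping libraries. Genes with 3 or more regained peaks and genes of the triplicated segments were named after their values were seen. The segments were chromosome 16 from Mrpl39 (84717576) to its end and chromosome 17 up to the end of Pde10a (8986648). Some genes and sequences that these rules select are not reported here.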

Additional observations from a re-analysis of the deposited data

How the results depend on the processing

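The number of regained peaks depended on the rule: it was 1637 when a peak within 1 kb also counted as present, 412 with q-values under 0.05 required in all 3 lists and 342 with them required in the euploid and Ts65Dn;Brwd1+/- lists only. The share in proximal promoters moved to 23.9% under the 1 kb rule. The share with a euploid ATAC peak moved to 30.4% under the 1 kb rule, 51.9 and 49.7% under the stricter q-value rules, 32.7% when the ATAC overlap had to cover 50% of the shorter peak (20.4% for missing peaks), and 31.6% when the ATAC peak had to cover the middle base, an alternative chosen after seeing the data (29.9% of nuclear members and 20.3% of nuclear missing peaks). Without mitochondrial and scaffold peaks 591 members remained, also chosen after seeing the data. Counting genes with a member in a proximal promoter only gave 55, 76 and 31 called genes of 104 in Ts65Dn against euploid, Ts65Dn;Brwd1+/- against Ts65Dn and Ts65Dn;Brwd1+/- against euploid, and the share lower in Ts65Dn fell from 39.4 to 29.8%. With the replicate block the called genes were 216, 260 and 101 of 348 (62.1, 74.7 and 29.0%), against 48.6, 59.8 and 31.4% of all genes. Pairing changed none of these counts by over 1.5 times. Leaving out each library in turn gave 177 to 206, 213 to 248 and 66 to 116 called genes. The share of all genes then ran from 38.2 to 45.1%, 48.7 to 57.8% and 21.2 to 33.0%. The DESeq2 Wald test gave 209, 245 and 95, against 44.9, 56.5 and 29.1% of all genes. A fit of the 6 euploid and Ts65Dn libraries alone, added after seeing the data, gave 190, against 42.3% of all genes. Scaling by DESeq2 size factors moved the median of all genes by -0.02, 0.01 and -0.01. Pooled lists give no replicate error at single peaks.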

Other observations

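Regained peaks covered by repeats for more than 50% of the window differed from the other members in strength. The 43 such members had a median euploid fold enrichment of 2.69 and a Ts65Dn;Brwd1+/- median of 3.42, with the second value higher at 34 of 43. The 548 other nuclear members had medians of 3.94 and 3.90, with the second value higher at 258. Of the 19 members in the Gm21738 and chromosome 17 intervals, 8 were repeat-covered and 11 were not, and all had a euploid ATAC peak. Without these intervals the medians were 3.27 and 3.65 for 35 repeat-covered members, with the second value higher at 26, and 3.98 and 3.90 for the 537 others. A euploid ATAC peak then overlapped 40.0% (25.6 to 56.4) of the repeat-covered members and 38.9% (34.9 to 43.1) of the others, whereas with the intervals the shares were 51.2 and 40.1%. Among repeat-covered missing peaks the share was 5.33% (3.39 to 8.26). Among the 70 repeat-covered peaks in all 3 lists it was 27.1% (18.1 to 38.5), and the Ts65Dn;Brwd1+/- fold enrichment was the higher at 65 of them.

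In the Ts65Dn;Brwd1+/- list 858 of 1873 peaks (45.8%) overlapped a euploid peak, and in the Ts65Dn list 617 of 1290 (47.8%) did.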
